A study of Mus musculus with 12 samples.

Results

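The mean RNA levels of whole melanoma tumors were set beside those of the cultured melanoma cells. All 12 samples of the study enter through these means. The culture group held 6 samples of the #781 murine melanoma cell line (C57BL/6 background), 3 with wildtype Nfe2l2 and 3 with an Nfe2l2 knockout. The tumor group held 6 tumors from separate C57BL/6 mice that carried #781 cells, again 3 wildtype and 3 knockout. Nfe2l2 encodes NRF2, the main transcription factor of the oxidative stress response. The line was made from tumor tissue of mice with Tyr-CreERT2, in which Cre under the melanocyte tyrosinase promoter switches on an oncogenic BRAF. It was passed through a C57BL/6 mouse before it was cultured, so all groups share this driver background. Cultures were grown in DMEM with 10% FBS and 1% penicillin and streptomycin, without further treatment. Tumors grew after cells were injected under the skin of immunocompetent mice of both sexes that were a few weeks old. Knockout tumors appeared later than wildtype ones and not in every mouse, so the time in the animal was not the same for the 6 tumors. The labels do not say which knockout clone was sequenced in culture.

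The members were the 17285 genes listed in both deposited tables, of 17285 genes in each. Each table gives, for each gene, 1 mean level over its 6 samples and both genotypes, as log2 CPM, the reads of a gene scaled to the reads of the library. No value of a single sample was available to this comparison. There is therefore no spread between replicates, no test and no p-value anywhere below, and a difference is described by its size alone. Whether the tables were normalized together or separately is not stated. Every difference across them therefore assumes that a CPM unit means the same in both. A gene was counted when its mean levels differed at least 4-fold, that is by 2 on the log2 scale, among the 14459 genes with a level of 1 or more in either table.

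The lowest values of both tables moved in even steps, each worth 1 read in 1 of the 6 libraries. These steps put the depth at an estimated 24853873 assigned reads over the 6 culture libraries and 24145737 over the 6 tumor libraries, or 4142312 and 4024289 per library. They also allow levels to be written as reads summed over 6 libraries, which is exact for low genes and an estimate for abundant ones. A gene with no read in any library still has a listed level, -1.05 in culture and -1.01 in tumors. This shared offset compresses the log2 difference of genes with few reads. For genes with no read in a group, a lower bound is given against a floor of 3 reads over that group. Intervals of a ratio are exact binomial 95% intervals and cover counting error only, not the variation between cultures or between mice.

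A tumor is a mixture. A cultured line is grown as melanoma cells alone, whereas a tumor under the skin also holds macrophages, fibroblasts, vessel wall cells, blood and lymphocytes of the host. Macrophages are phagocytes that secrete complement and present antigen, fibroblasts lay down collagen and other matrix, and interferons switch on a broad antiviral program in nearly any cell. In bulk RNA, fewer cells of a type and less RNA per cell cannot be told apart, and RNA of host cells cannot be told apart from RNA of the melanoma cells themselves.

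Far more genes were higher in tumors than in culture. At least 4-fold higher levels in tumors were found for 1301 genes, 9.0% of the 14459. At least 4-fold higher levels in culture were found for 86 genes, 0.595%. Of the genes past 4-fold in either direction, 93.8% were thus higher in tumors. The bulk of the transcriptome sat close to equality. Over the 12676 genes with a level of 1 or more in both tables the median difference, tumor minus culture, was -0.03, with the 5th percentile at -0.97 and the 95th at 1.39. The genes of the 2 directions differed in how often they were unread in the other group. Of the 1301 genes higher in tumors, 560 (43.0%) had at most 3 reads in all 6 culture libraries, and 307 had none. Of the 86 genes higher in culture, 3 had no read in tumors, while 59 (68.6%) still had a tumor level of 1 or more. This contrast depends on which genes are listed. Among all 17285 listed genes, 523 had no read in culture but only 8 had none in tumors, so few could be unread there. Protein-coding genes made up 1229 of the 1301 and 75 of the 86.

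**Figure D1:**
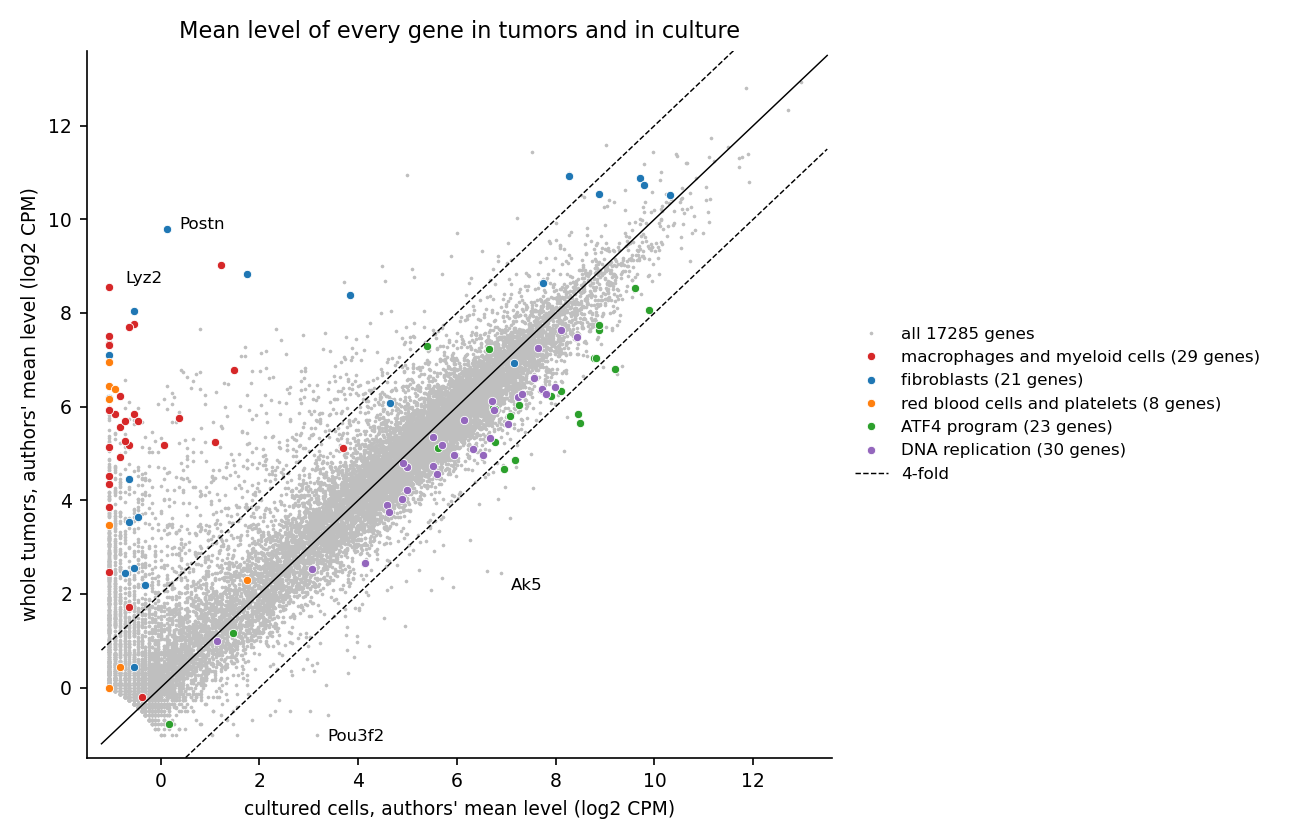
Mean level of each of the 17285 genes in cultured cells (x axis) and whole tumors (y axis), both the authors' means over 6 samples in log2 CPM, with 5 gene lists in colour. The solid line marks equal levels and the dashed lines 4-fold differences. Macrophage and red blood cell genes stack at the left edge, where culture had few or no reads, while genes of the ATF4 program lie below the diagonal, apart from 2 above it.

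The largest differences belonged to secreted matrix proteins, macrophage genes and haemoglobins. Postn, the matrix protein periostin, had 15 reads in culture and 21364 in tumors, a level of 0.12 against 9.79. That is a read ratio of 1467 (interval 889 to 2620). Lyz2, the lysozyme of macrophages and neutrophils, had no read in culture and 9014 in tumors, at least 3094-fold higher. Dcn (decorin) had 5 reads against 6310 and Lum (lumican) none against 3319, which is at least 1139-fold higher. Both are small proteoglycans that bind collagen fibrils. Of the 25 genes with the largest differences, 15 had no read in culture and 18 had at most 3. The smallest of these 25 differences was 6.81 on the log2 scale. Other members of the 25 were Thy1 and Lrrc15, surface proteins of fibroblasts, Mgp, an inhibitor of mineral deposition, Tnn, the matrix protein tenascin-N, and Lcp1, an actin bundler of white blood cells. Gpx3, the secreted glutathione peroxidase, had no read in culture and 1514 in tumors. Acp5, the tartrate-resistant acid phosphatase of osteoclasts and macrophages, had none against 1292.

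**Figure D2:**
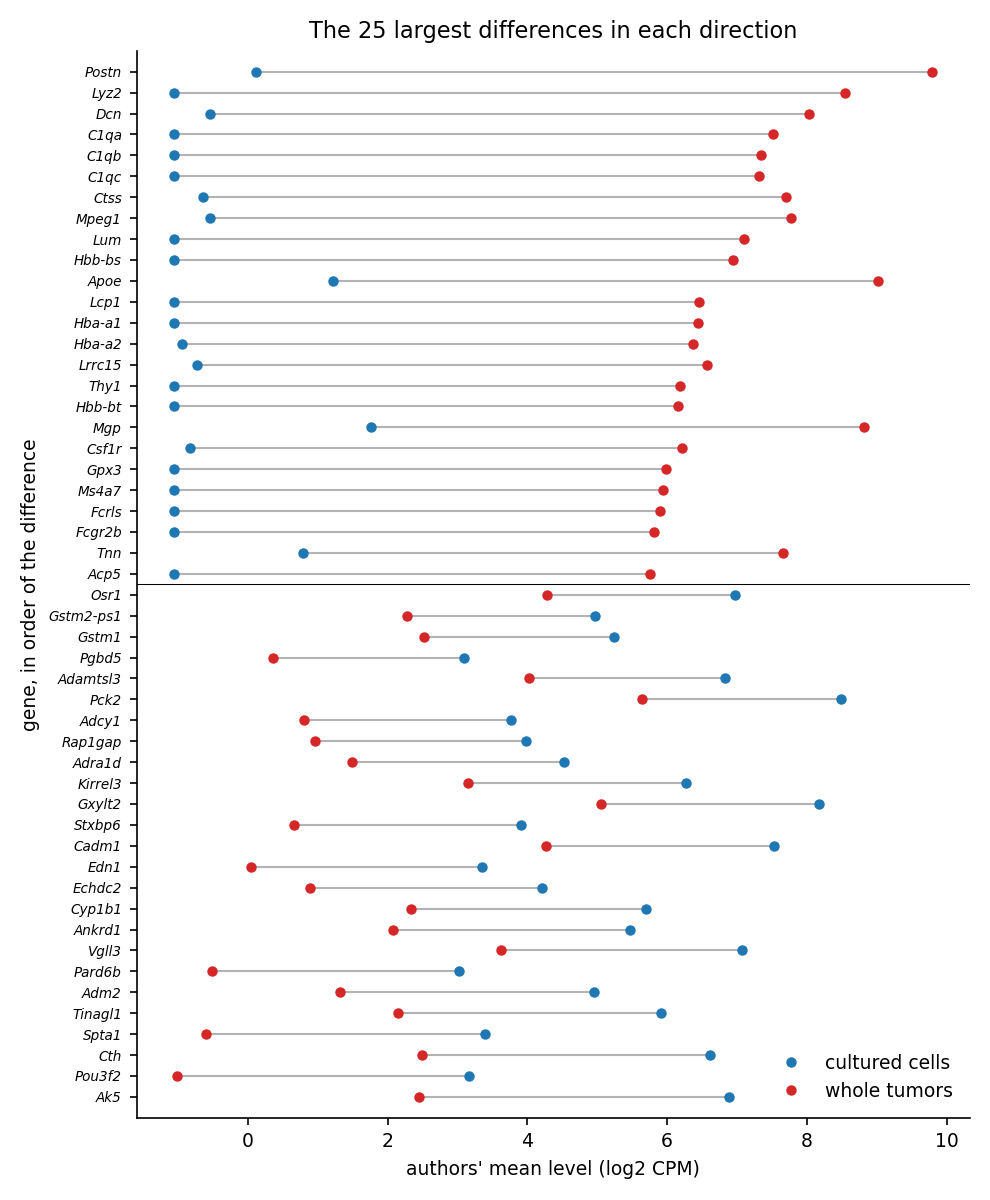
Levels (log2 CPM, authors' means) in cultured cells and whole tumors for the 25 genes with the largest difference in each direction, among named genes with a level of 3 or more in the higher group. Above the line all red points lie right of the blue ones, with differences of 6.81 to 9.67. Below it the differences run from 2.69 to 4.44 in the other direction, and most genes keep a measurable tumor level.

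Markers of host cells were described through 14 lists, which held 180 distinct measured genes. Of these, 106 were at least 4-fold higher in tumors and 0 were at least 4-fold higher in culture. These counts hold for listed genes only. Entries under the symbol existed for 29 of 30 macrophage genes written, but for 7 of 16 neutrophil, 7 of 16 adipocyte and 8 of 24 keratinocyte genes. A listed gene with no read in culture can only be equal or higher in tumors, so the counts lean that way. The macrophage list stood highest. Of its 29 measured members 27 were at least 4-fold higher in tumors, against 9.0% of all genes, and the median difference was 6.16, against 0.05 over all 14459 genes. With the offset removed and both tables floored at 3 reads, the same median was 8.13. The 29 genes together had 536 reads in culture and 65035 in tumors, 0.00216% and 0.269% of all reads. Csf1r, the receptor for the macrophage growth factor CSF1, had 2 reads against 1788. Adgre1, which encodes the mouse macrophage antigen F4/80, had 1 read against 1378, and Cd68, a lysosomal glycoprotein of macrophages, had 41 against 908. Apoe, the lipid carrier that macrophages secrete, had 46 reads against 12554. The 2 members that did not pass were Cd14, the lipopolysaccharide co-receptor, with 309 and 823 reads, and the entry under the symbol Itgam, with 7 and 9. That entry carries the ID of another gene model that overlaps Itgam, so it gives no value for the integrin chain CD11b. It is still counted among the 29.

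The complement subcomponent C1q is built from 3 chains, A, B and C, and macrophages are a main source of it. C1qa had 4413 reads in tumors, C1qb 3919 and C1qc 3820, and none of the 3 had a read in culture. The difference was at least 1515-fold, 1345-fold and 1311-fold. The genes lie next to each other on chromosome 4. Promoters were searched for the PU-box of the myeloid factor PU.1, given as GAGGAAGT and read on both strands, in the window from 250 bases before to 50 after the start (RefSeq, GRCm38.p6). It stood in 3 of the 20 macrophage genes with a promoter entry (15.0%), C1qc, Ctss and Cd53, and in 3.69% of all 27025 genes with an entry. For C1qc and for Ctss, the lysosomal protease cathepsin S with 4 reads in culture and 4995 in tumors, the stretch around the motif is shown on the strand of the gene, with the motif in capitals.
C1qc (chr4:136893092-136893119, minus strand): gacggcagacACTTCCTCattttggcac
Ctss (chr3:95526774-95526801, plus strand): atgaaagttcACTTCCTCattgtggatg

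Other blood and immune cells gave smaller signals. In the red blood cell and platelet list, 5 of 8 measured genes were at least 4-fold higher in tumors, with a median difference of 5.86. Hbb-bs, a haemoglobin beta chain, had no read in culture and 2966 in tumors. The haemoglobin genes come in near-identical pairs, so the split of reads between Hba-a1 and Hba-a2, and between Hbb-bs and Hbb-bt, is uncertain. The T and NK cell list had 15 measured genes of 24, of which 8 were at least 4-fold higher in tumors, with a median of 2.09. Gzmb, the killer protease granzyme B, had no read in culture and 136 in tumors, at least 46.7-fold higher. Prf1, the pore-forming perforin, had 0 and 60, Cd8a 0 and 24, and Cd3g 1 and 15. These lymphocyte genes thus rested on far fewer tumor reads than the macrophage genes above. Each tumor mean also pools both genotypes, and the study reports Gzmb and Prf1 expression in knockout tumors but not in control tumors. Trbc2, a T cell receptor constant region, had 109 reads in culture as well, against 988 in tumors. Among 7 mast cell genes 5 were higher in tumors by the rule, led by the proteases Mcpt4 (0 and 165 reads) and Tpsb2 (0 and 139). Among 7 neutrophil genes 5 were, but S100a8 and S100a9, the proteins that fill neutrophils, had 30 and 54 tumor reads and no read in culture. The leading gene of that list was Mmp9, a gelatinase that macrophages make too, with 3 reads and 1511. Of 8 dendritic cell genes, 2 reached the level of 1 that the count requires, and 1 passed 4-fold, against 9.0% of all genes counted. The gene that passed was Itgax (CD11c), with 0 and 563 reads. Flt3, Xcr1, Clec9a, Ccr7 and Batf3 had tumor levels between -0.01 and 0.53, too low to be counted. For B cells and plasma cells 2 of 6 passed, and Ighm, the heavy chain of IgM, had 0 and 146 reads.

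Vessel wall and connective tissue genes followed. Of 22 endothelial genes 19 were at least 4-fold higher in tumors, with a median difference of 4.17. Pecam1 and Cdh5, adhesion proteins of endothelial junctions, had 5 reads each in culture and 1254 and 1182 in tumors. Kdr, the main receptor for vascular endothelial growth factor, had 0 and 531. Flt1, a receptor for the same factor, went against the list, at 6.72 in culture and 5.83 in tumors. Eng and Pdpn were also read in culture, with 3824 and 1745 reads against 4756 and 2469 in tumors. Rgs5, Abcc9 and Kcnj8, which mark pericytes, had no read in culture and 509, 310 and 164 reads in tumors. Fibroblast genes split into 2 sets. Postn, Dcn, Lum and Thy1 were near 0 in culture, whereas Col1a1, Col1a2 and Col3a1, the chains of fibrillar collagens, were already above a level of 9 there. Col1a2 stood at 10.31 in culture and 10.51 in tumors. Hence 13 of 21 fibroblast genes passed 4-fold, and the median was 3.09. Part of the fibroblast list was therefore read in culture as well, and which cells made that RNA was not tested.

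**Figure D3:**
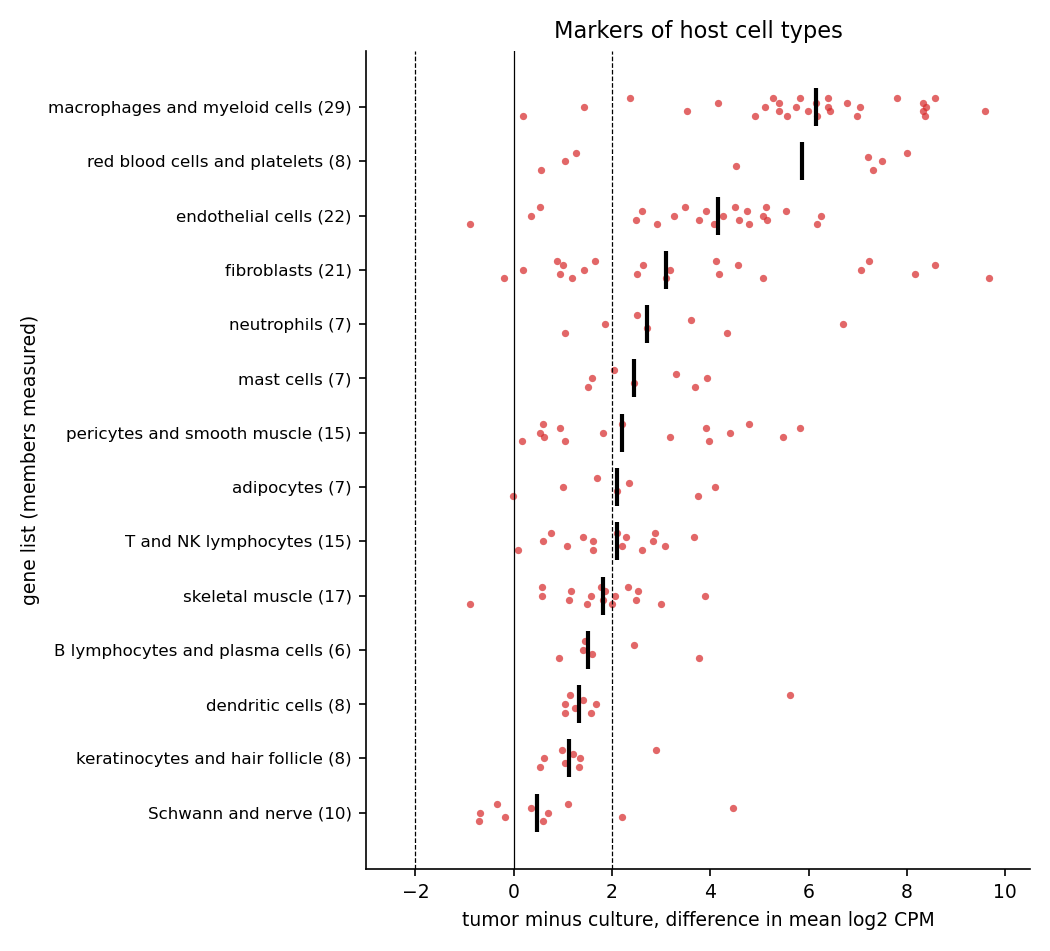
Tumor minus culture difference in mean log2 CPM for each measured member (points) of 14 lists of host cell markers, with the list median as a black bar, the number of measured members in brackets and 4-fold differences as dashed lines. The macrophage median lies at 6.16 and the Schwann and nerve median at 0.48, and no point lies left of the lower dashed line.

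Most markers of tissues next to the injection site were read at low levels. The skeletal muscle list had a median difference of 1.82 and 6 of 17 members past 4-fold. Apart from the enolase Eno3, which had 3437 reads in culture and 1798 in tumors and made up most of the 3550 and 2755 reads of the list, its members were low. Examples are Myh4, a fast myosin heavy chain, with 0 reads in culture and 160 in tumors, and Ckm, the muscle creatine kinase, with 0 and 35. The palindromic E-box CAGCTG, a binding sequence of muscle regulators, was found in 10 of 12 promoters of this list (83.3%) and in 18.3% of all. Among adipocyte genes, 4 of 7 passed, led by the fatty acid binding protein Fabp4 with 5 and 271 reads. Of 8 keratinocyte genes, 4 reached the level of 1 that the count requires, and Krt6a alone passed, against 9.0% of all genes counted. Krt5 and Krt14, the keratins of the basal epidermis, had 12 and 13 reads in tumors. In the Schwann and nerve list, Egr2 and Mbp passed out of 10, of which 8 reached that level, against 9.0% of all genes counted. Mag, a myelin protein, had 0 and 13 reads, and Egr2, which is also an immediate early gene, 10 and 456.

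Genes of interferon and antigen presentation were higher in tumors as a group. Of 29 interferon-induced genes, 27 were at least 4-fold higher and none lower, with a median difference of 4.07. Their reads amounted to 0.0515% of the culture total and 0.357% of the tumor total. Of the 29 genes 1 had no read in culture, against 10 of the 29 macrophage genes. Ifit3 and Ifit1, which bind viral RNA, had 315 and 536 reads in culture and 9821 and 6147 in tumors. Isg15, a ubiquitin-like modifier, stood at 3.72 and 7.02, and Irf7, a transcription factor that amplifies type I interferon, at 2.02 and 7.14. Zbp1, a sensor of Z-form nucleic acid, had 4 reads and 1653. Ifit2 had a smaller difference, from 6.70 to 8.06. Ifit3 and Ifit3b are close copies, as are members of the Oas family, so their single values are uncertain. Ifih1, which encodes the RNA sensor MDA5, stood at 3.82 and 6.40. Tmem173, which encodes the adaptor STING, had 784 and 1971 reads. Each mean pools 3 wildtype and 3 knockout samples. The study reports higher Rsad2, Ifih1, Isg15, Ifit1 and Tmem173 in knockout tumors, so the pooled values describe neither genotype.

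The interferon-stimulated response element, searched as GAAA, any 2 bases and GAAA on both strands, stood in 16 of 21 promoters of the interferon list (76.2%) and in 3.99% of all 27025. This motif was chosen after the values of the list were seen. The first match of 4 genes is shown on the strand of the gene with the element in capitals.
Ifit3 (chr19:34583363-34583392, plus strand): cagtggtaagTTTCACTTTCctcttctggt
Ifit1 (chr19:34640775-34640804, plus strand): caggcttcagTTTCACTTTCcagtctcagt
Isg15 (chr4:156200877-156200906, minus strand): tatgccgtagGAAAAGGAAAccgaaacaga
Bst2 (chr8:71537583-71537612, minus strand): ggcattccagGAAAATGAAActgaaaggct

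Antigen presentation differed by class. Class II molecules present peptides to helper T cells and are made mainly by professional antigen-presenting cells. H2-Aa, H2-Ab1 and H2-Eb1 had no read in culture and 534, 373 and 316 reads in tumors, and Cd74, the invariant chain, had 2 and 721. Of 8 class II genes, 6 were at least 4-fold higher in tumors. Class I molecules are made by nearly all cells, and their genes were read in culture. H2-K1 stood at 6.83 in culture and 9.12 in tumors, and H2-D1 at 7.89 and 9.50. Psmb9, an immunoproteasome subunit, had no read in culture and 321 in tumors. The list had 9 of 14 genes past 4-fold with a median of 2.42. The H2-Q genes are near-identical copies and their single values are uncertain.

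Complement and chemokine genes each held an exception that was higher in culture. Of 16 complement genes 13 were at least 4-fold higher in tumors, with a median of 4.31. C3ar1, a receptor for the C3a fragment, had 14 reads and 1711. Masp1, a protease of the lectin pathway, went the other way, at 6.73 in culture and 4.60 in tumors. Of 16 chemokines 13 were at least 4-fold higher in tumors, and the median was 3.66. Cxcl14 had no read in culture and 542 in tumors, Cxcl16 had 13 and 955, and Ccl12 had 0 and 308. Cxcl12, the ligand of CXCR4, stood at 8.04 in culture and 6.25 in tumors. It gave 6523 of the 6806 reads of the 16 chemokines in culture, and 1832 of their 6843 reads in tumors.

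**Figure D4:**
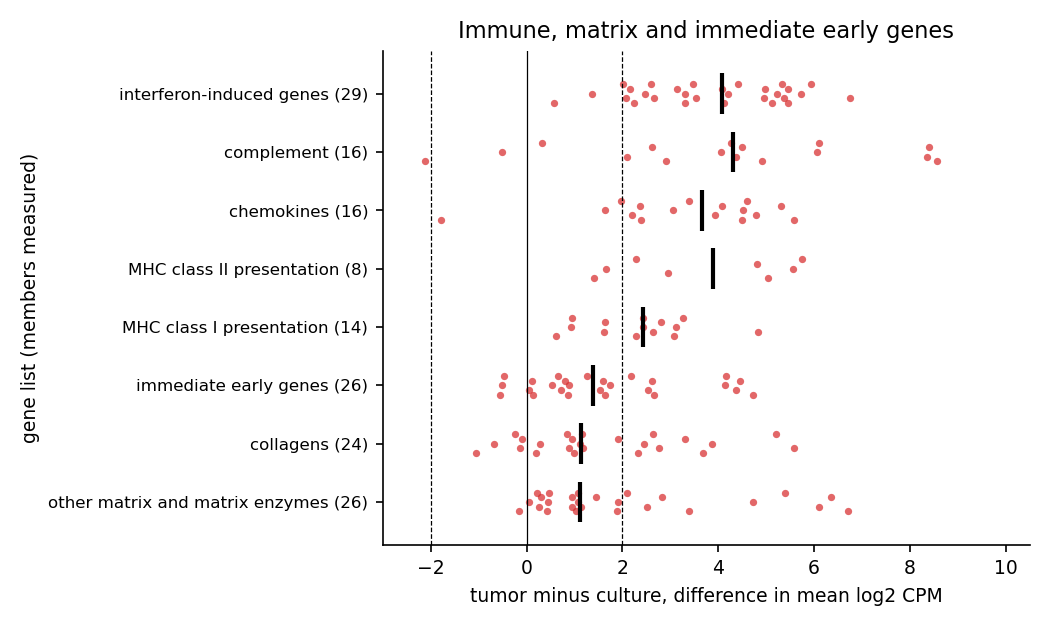
Tumor minus culture difference in mean log2 CPM for each measured member (points) of 8 lists of immune, matrix and immediate early genes, with list medians as black bars, the number of measured members in brackets and 4-fold differences as dashed lines. The interferon median is 4.07 and the collagen median 1.14. Masp1 and Cxcl12 are the points furthest left among complement and chemokine genes.

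Matrix genes were mixed. Of 24 collagens, 9 were at least 4-fold higher in tumors and none in culture, with a median difference of 1.14. Col15a1, a collagen of vascular basement membranes, had 1 read and 592. Col7a1, the anchoring fibril collagen of skin, stood at 1.12 and 6.32, and Col6a2 at 5.09 and 8.94. Col8a1 went against the list, from 8.77 in culture to 7.71 in tumors. Col4a1 and Col4a2, the main chains of basement membranes, stood at 8.56 and 8.70 in culture and 7.87 and 8.46 in tumors. Of 26 other matrix genes and matrix enzymes 9 passed. Lox, which cross-links collagen and elastin, had 12 reads and 1587, Eln (elastin) 1 and 518, and Mmp13, a collagenase, 1 and 1014. Fn1 (fibronectin) and Sparc, by contrast, were highly expressed in both groups and differed by 0.05 and 0.22. Spp1, the secreted phosphoprotein osteopontin, held 0.367% of the summed CPM in culture and 0.710% in tumors.

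Immediate early genes, which are transcribed within minutes of growth factor or stress signals, were in part higher in tumors. Of 26, 9 passed 4-fold, with a median of 1.39. Fos had 5 reads in culture and 427 in tumors, Egr3 5 and 329, and Nr4a3 6 and 302. Jun, Klf6 and Fosl1 were expressed in both groups, with differences under 1. Ptgs2, which encodes the inducible cyclooxygenase COX2, stood at 9.01 in culture and 11.59 in tumors. It was 1 of the 10 most read genes of the tumors, with 0.306% of the summed CPM. Of 20 genes of the oncogenic pathways of this model, Spry4, a feedback inhibitor of RAS signalling, alone passed 4-fold, against 9.0% of all genes. Spry4 stood at 5.72 and 7.74. Dusp6, the ERK phosphatase, stood at 6.32 and 7.99, and Braf at 5.47 and 5.91. Trp53, the p53 gene, was lower in tumors by 1.15.

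Genes of pigment and of the melanocyte lineage were described as markers of the melanoma cells. Of 22 markers of the melanocyte lineage, 14 had values here. Tyr, Tyrp1, Dct, Mlana, Gpr143, Slc45a2, Sox10 and Mc1r had none, so these central markers could not be described. Mitf, the master regulator of the lineage, had 146 reads in culture and 441 in tumors, a level of 2.67 against 4.23. Pmel, a structural protein of pigment granules, had 8 and 13 reads, and Oca2, a transporter of the melanosome, 11 and 10. Pax3, a neural crest factor upstream of Mitf, stood at 4.88 and 4.64. So Pax3 was read in both groups, while Pmel and Oca2 were close to 0 in both. Ednrb and Kit, receptors of the lineage that other cells use as well, had 1 and 2 reads in culture and 622 and 126 in tumors. Gpnmb, a melanosomal and macrophage glycoprotein, was lower in tumors, 9.34 against 6.87. Genes of undifferentiated melanoma were high in both. Axl, a receptor kinase, stood at 11.04 and 10.42, and Vim (vimentin), which took the most reads in both tables (not corrected for gene length), at 12.96 and 12.94. Egfr and Nt5e, 2 other genes of that list, had 3 and 24 reads in culture and 222 and 736 in tumors. Snai2, a mesenchymal transcription factor, was lower in tumors by 1.99.

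Genes of amino acid synthesis had lower mean levels in tumors than in culture. ATF4 is a transcription factor of the integrated stress response, which switches on amino acid uptake and synthesis, tRNA charging and folate metabolism. Of 23 genes of its program 21 were lower in tumors, with a median difference of -1.27, and 5 were at least 4-fold lower against 0.595% of all genes. These 5 were Pck2, Phgdh, Shmt2, Chac1 and Psph. Pck2, the mitochondrial enzyme that makes phosphoenolpyruvate, stood at 8.49 in culture and 5.65 in tumors, 7.25-fold more reads in culture (interval 6.83 to 7.71). Phgdh and Psph, the first and last enzymes of serine synthesis, stood at 8.46 and 6.96 in culture and 5.85 and 4.67 in tumors. Shmt2, which moves the serine carbon to folate, stood at 9.20 and 6.81. Chac1, which degrades glutathione, stood at 7.17 and 4.86. Atf4 itself was at 9.61 and 8.53. All members together held 0.643% of culture reads and 0.236% of tumor reads. Nupr1 and Ddit3, both stress-response genes, went against the list, with 5.39 and 6.65 in culture and 7.30 and 7.24 in tumors.

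The enzymes that load amino acids onto tRNA were lower in tumors as well. Of 20 cytosolic aminoacyl-tRNA synthetases 19 had a negative difference, and the median was -1.17, but none passed 4-fold. Lars, Gars, Mars and Sars, which load leucine, glycine, methionine and serine, differed by -1.55, -1.49, -1.45 and -1.45. Dars, for aspartate, was level at 6.97 and 6.99. The 20 genes held 0.699% of culture reads and 0.315% of tumor reads. The composite C/EBP-ATF element that ATF4 binds was searched as TGATGNAA on both strands, a choice made after the values were seen. It was found in 8 of 21 promoters of the ATF4 program (38.1%), in 5 of 12 of the synthetases (41.7%) and in 4.51% of all 27025. A match is shown for 5 genes with the element in capitals, on the strand of the gene. Asns, the asparagine synthetase, whose element is well known from its human counterpart, stood at 8.78 in culture and 7.05 in tumors. Trib3, a pseudokinase that feeds back on ATF4, stood at 7.91 and 6.23.
Asns (chr6:7693215-7693242, minus strand): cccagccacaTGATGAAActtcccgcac
Chac1 (chr2:119351039-119351066, plus strand): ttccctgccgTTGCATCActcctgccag
Trib3 (chr2:152344029-152344056, minus strand): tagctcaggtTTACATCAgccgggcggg
Pck2 (chr14:55540153-55540180, plus strand): gccttcaaagTTACATCAgtatcttaca
Gars (chr6:55037961-55037988, plus strand): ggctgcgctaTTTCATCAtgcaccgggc

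Genes of growth and division were lower in tumors by small amounts and with few exceptions. All 30 DNA replication genes had a negative difference, with a median of -0.86 and a range from -1.57 to -0.10. Mcm2 and Mcm5, of the replicative helicase, stood at 7.98 and 7.81 in culture and 6.41 and 6.27 in tumors. Of 30 mitosis genes, 29 had a negative difference, with a median of -0.59. Cdc20, an activator of the anaphase ubiquitin ligase, stood at 6.94 and 5.69, and Plk1, a mitotic kinase, at 6.82 and 5.62. Cdk1 differed by -0.19. None of the genes of either list differed 4-fold. The CCAAT box, read as CCAAT or ATTGG, stood in 20 of 25 mitosis promoters (80.0%) and in 41.1% of all. All 25 genes of ribosome biogenesis were lower too, with a median of -0.88. Mybbp1a, a nucleolar regulator, differed by -1.39, and Ncl (nucleolin) by -1.05. The 45 cytosolic ribosomal protein genes, in contrast, had a median of -0.03. That median became 0.30 when differences were centred on the reference genes.

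**Figure D5:**
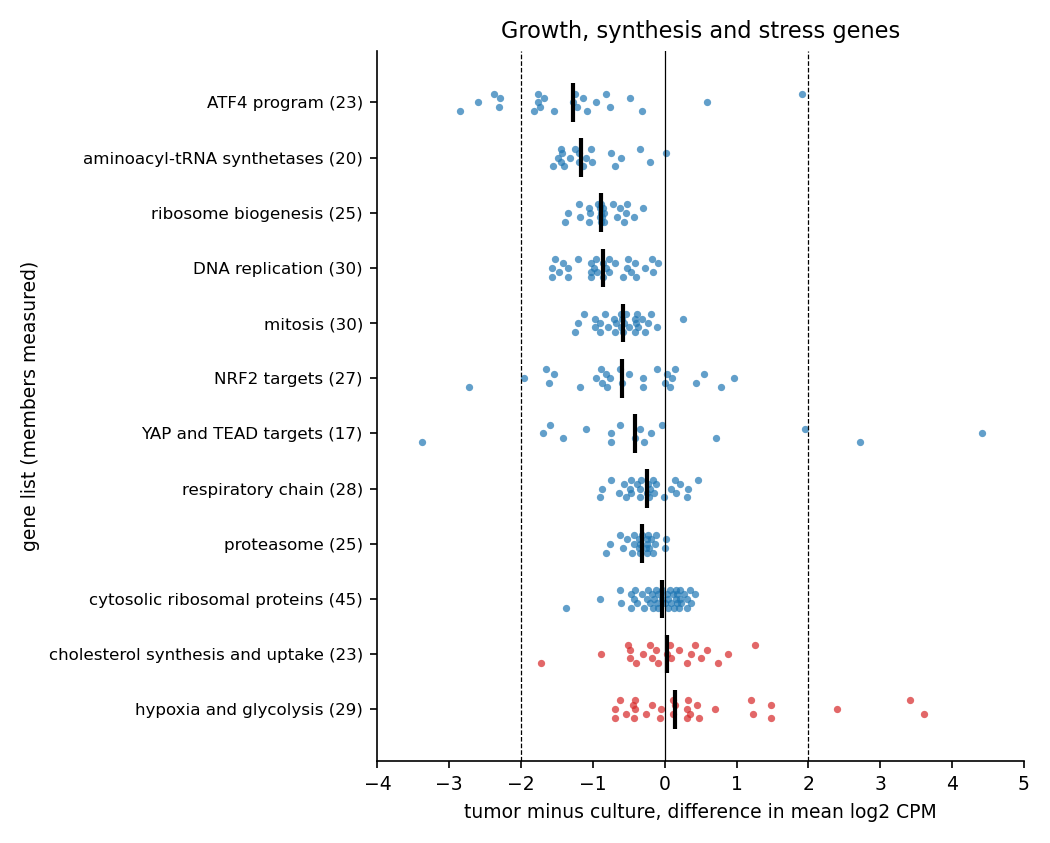
Tumor minus culture difference in mean log2 CPM for each measured member (points) of 12 lists of growth, synthesis and stress genes, with list medians as black bars, the number of measured members in brackets and 4-fold differences as dashed lines. All points of DNA replication and ribosome biogenesis lie left of 0, and the ATF4 program has the lowest median, -1.27. Centring on the reference genes moves all points right by 0.33 and turns the sign of the ribosomal protein, respiratory chain and proteasome medians.

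A set of 23 reference genes, often taken as stable, gave a median difference of -0.33. Centring on it adds 0.33 to every difference. Under it the lower medians of the ATF4 program, the synthetases, DNA replication, ribosome biogenesis and mitosis were -0.94, -0.83, -0.53, -0.55 and -0.25. The respiratory chain and proteasome medians, -0.24 and -0.32, became 0.09 and 0.01, so no direction is given for them. RNA added by other cells lowers the share of each melanoma transcript, and this and a lower level per melanoma cell cannot be told apart here.

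Targets of NRF2 were for the most part lower in tumors. Of 27 measured targets, 19 had a negative difference, with a median of -0.60 (-0.26 when centred on the reference genes). Gstm1, a glutathione transferase, was the only one past 4-fold, at 5.23 in culture and 2.51 in tumors. Gclm and Gclc, the subunits of the enzyme that starts glutathione synthesis, stood at 4.56 and 6.30 in culture and 2.60 and 5.43 in tumors. Slc7a11, the cystine importer, stood at 6.78 and 5.24 and also belongs to the ATF4 program. Hmox1, the heme oxygenase, stood at 6.45 and 5.64, and Nqo1, a quinone reductase, had 139 and 142 reads. Nfe2l2 itself stood at 7.70 and 8.25. Each mean pools 3 wildtype and 3 knockout samples, so these values describe neither genotype.

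The 25 genes with the largest difference toward culture differed by 2.69 to 4.44. Cth, which makes cysteine from cystathionine, had 2426 reads in culture and 124 in tumors, 19.0-fold more in culture (interval 15.86 to 22.95). Ak5, an adenylate kinase, had 2932 and 120, a ratio of 23.8 (interval 19.8 to 28.7), and had the largest difference of all, 4.44. Pou3f2, the POU-domain factor BRN2 known from melanoma cells, had 210 reads in culture and none in tumors, at least 68.0-fold higher in culture. Vgll3, a cofactor of TEAD factors, stood at 7.07 and 3.63, and Ankrd1, a classical target of YAP, at 5.47 and 2.08. The other YAP and TEAD targets did not share this size. Cyr61 and Ctgf differed by -0.35 and -0.75, and the median of 17 genes was -0.41. Of the 17, Igfbp3 and Nt5e were at least 4-fold higher in tumors, against 9.0% of all genes. Cyp1b1, a cytochrome P450 that responds to aryl hydrocarbons, stood at 5.70 and 2.34. Edn1, the peptide endothelin, had 241 reads and 13, and Cadm1, an adhesion molecule, stood at 7.53 and 4.26. Adm2, a peptide of the adrenomedullin family, stood at 4.96 and 1.31.

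In the hypoxia and glycolysis list and the p53 target list, the share past 4-fold was near that of all genes. Of 29 hypoxia and glycolysis genes 3 were at least 4-fold higher in tumors, against 9.0% of all genes. These were Car9, Ankrd37 and Slc16a3. Car9, the carbonic anhydrase that HIF induces, had 4 reads and 177, and Slc16a3, the lactate exporter, stood at 3.24 and 5.64. Among the glycolytic genes, Pkm stood at 11.78 and 11.33, Gapdh at 7.77 and 7.08, and Vegfa and Slc2a1 differed by 0.12 and -0.06. Of 17 p53 targets 2 passed, again near 9.0%. Pmaip1 and Fas, which did, stood at 5.10 and 0.32 in culture and 7.51 and 2.47 in tumors, and Bax and Plk2 had differences of -1.03 and -1.21. Among 16 chaperones 3 were at least 4-fold higher in tumors, Hspb8, Hspb1 and Cryab, against 9.0% of all genes. Hspd1 and Hsp90ab1 stood lower by 1.34 and 1.12. Cholesterol genes had a median of 0.03. Of 24 lysosomal genes 4 passed 4-fold toward tumors, against 9.0% of all genes. These were Ctss and Cd68, both also in the macrophage list, and Atp6v0d2 and Ctsk, which osteoclasts and macrophages express.

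A number of genes were clearly expressed in culture and still much higher in tumors. Of the 1301 genes, 150 (11.5%) had a culture level of 3 or more. The ones named here were chosen after their values were seen. Igfbp4, which binds insulin-like growth factors, had 778 reads in culture and 47410 in tumors, a ratio of 62.8. Aqp1, a water channel, stood at 7.52 and 11.44, and was among the 10 most read tumor genes. Sema7a, a membrane-bound semaphorin, stood at 4.47 and 9.01, and Tgfbi, a matrix protein induced by TGF-beta, at 6.01 and 9.70. Pdgfra, a receptor of fibroblasts and neural crest cells, stood at 3.83 and 8.39. RNA for the ligands of the macrophage receptor Csf1r was read in culture too, without this pattern. Csf1 went the other way, at 9.25 in culture and 6.69 in tumors. Il34 stood at 5.10 and 5.93, which is short of 4-fold.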

How the data were processed

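Poly(A) RNA of 6 cultures and 6 tumors was sequenced from NEBNext Ultra II libraries. The submitters' processing notes name FastQC, Bowtie2 2.3.2, TopHat2 2.1.1 and the mm10 build. How reads were counted and normalized is not given in the sources used here, nor is strand, so overlapping genes cannot be told apart. The deposited log2 CPM values are the authors' means, 1 per gene and table, over 6 samples. Fold change, p and adjusted p columns of the authors' genotype comparison were not used.

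The tables were joined by Ensembl ID (17285 genes, of which 17230 were found in GENCODE M21, GRCm38), and culture was subtracted from tumor. Counts use 4-fold and a level of 1. Below 20 reads, 100% of culture genes and 99.6% of tumor genes lay within 0.1 of a whole number of reads. Gene names in the text follow a rule. It takes the 25 largest differences in each direction among named genes at a level of 3, for each list the 4 largest differences, the members against the median by 1 and the first 3 markers, genes named in the study, and the 10 most read genes per table. Members named beyond it were chosen after their values were seen. The members and lists were chosen with earlier results of these data known. Scripts ran in Python 3.11.15 (numpy 2.4.6, pandas 2.3.3, scipy 1.17.1) and were tested on simulated data. Alternatives were other centrings, rescaling, levels and folds. Some items are not reported here.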

Additional observations from a re-analysis of the deposited data

How the results depend on the processing

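The 1301 genes higher in tumors became 758 at a level of 3 or more, 2343 at 2-fold and 666 at 8-fold. The 86 genes higher in culture became 53 with differences centred on the reference genes, 661 at 2-fold and 20 at 8-fold. These follow from fewer genes tested, another threshold or a shift of 0.33. The share of genes higher in tumors was 93.8% as reported, 96.7% with the reference genes and 78.0% at 2-fold. Centring on the genes at a level of 1 or more in both tables (1315 and 83), rescaling each table to the same sum (1301 and 86), no filter on level (1308 and 86), removing the offset with a floor of 3 reads (1499 and 121) and protein-coding genes alone (1229 and 75) stayed within 1.5 times of the counts. The last 2 were chosen after seeing the data. The skeletal muscle median was -0.89 when members had to reach a level of 3, which left Eno3 alone. No paired analysis was possible because each table holds 1 mean per gene, and for the same reason no replicate could be left out. A single library that carries a gene's mean would not be seen, and at an estimated 4024289 reads per tumor library lymphocyte and muscle genes rest on few reads.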

Other observations

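Imprinted genes, which are transcribed from 1 parental copy, were read in tumors. They were picked after their values were seen. H19, a long non-coding RNA, had 4 reads in culture and 827 in tumors, and Meg3, another, had none and 592. Peg3 had 0 and 173 reads, and Mest 31 and 397. Igf2, the neighbour of H19, had 1 and 15, Cdkn1c 9 and 18, and Plagl1 37 and 31, so the higher values were not shared by the whole class.

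Processed pseudogenes differed from protein-coding genes. Of 1776 at a level of 1 or more, 11 (0.619%) were at least 4-fold higher in tumors, against 10.4% of 11859 protein-coding genes, and 9 were higher in culture. Their median difference was -0.24, against 0.09. Reads of a processed pseudogene can come from its parent gene, and which it was could not be seen in the tables. Gm13456 in culture and Gm10925 and Gm28437 in tumors, all annotated as pseudogenes, were among the 10 most read genes. Leaving out chromosome Y, the share of genes at least 4-fold higher in tumors ran from 5.66% on chromosome X to 11.98% on chromosome 15.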
